A study of Mus musculus with 8 samples.

Results

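The serine, one-carbon and asparagine enzymes are described here by 10 genes, Phgdh, Psat1, Psph, Shmt1, Shmt2, Mthfd1, Mthfd2, Mthfd1l, Aldh1l2 and Asns. Every probe set whose single gene symbol in the platform annotation is one of these was taken, which gave 24 of 45037 probe sets, and all 10 genes had at least 1. Fully grown mouse oocytes with an intact germinal vesicle were compared between 4 females labelled Dicer knockout and 4 wild-type females, each on 1 Affymetrix mouse genome array made from 20 oocytes. All 8 females were 129/C57BL6 and eCG-primed (given equine chorionic gonadotropin, which makes follicles grow), and their oocytes were pipetted free of cumulus cells. The deleted part of the gene, the Cre driver and the animals' ages are not given in the sources used here. The enzymes were picked with earlier results of the same contrast known, in which Asns and Shmt2 were already among the higher genes. Their differences between genotypes are therefore given as descriptions, with no p-value.

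Cells make serine from a glycolytic intermediate in 3 steps, run by Phgdh, Psat1 and Psph. Serine hydroxymethyltransferases then split serine into glycine and a carbon unit carried on folate, Shmt1 in the cytosol and Shmt2 in mitochondria. The carbon passes through Mthfd2, Mthfd1l and Aldh1l2 in mitochondria or Mthfd1 in the cytosol, and feeds the synthesis of purines, thymidylate and methyl groups. Asns makes asparagine from aspartate and glutamine. In many mammalian cells several of these genes are targets of Atf4, the transcription factor of the amino acid response. Dicer cuts microRNAs and endogenous short interfering RNAs from double-stranded precursors, and both kinds of small RNA occur in mouse oocytes.

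Dicer1 itself read 14.35, 14.32, 14.26 and 14.36 on the knockout arrays, against 13.31, 13.07, 13.10 and 13.04 on the wild-type arrays (log2 signal), in its brighter probe set. The transcript signal was thus higher, not lower, on the arrays labelled knockout, and since the deleted exons are not given this does not check the labels. Array medians lay between 6.35 and 6.43. The brightest oocyte markers, Zp1, Zp2, Zp3, Gdf9 and Oosp1, averaged at least 13.87 in both groups. Of the 11 oocyte markers measured, 4 were lower in knockout samples at the threshold given below and 0 higher, beside 12.8% and 8.18% of all genes. Over all probe sets 6.82% were higher and 9.31% lower in knockout oocytes by limma at adjusted p under 0.05, the threshold used throughout, with Benjamini-Hochberg adjustment over all 45037.

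Of the 24 probe sets of the enzymes, 10 lay past that threshold as higher in knockout oocytes and 0 as lower, beside the 6.82% and 9.31% of all probe sets. In 11 probe sets all 4 knockout values lay above all 4 wild-type values, and in 1 all lay below (9.66% and 11.5% of all probe sets, or 21.2% either way). By brightest probe set, 5 of the 10 genes were past the threshold, all higher, beside 8.18% higher and 21% in either direction of all 18193 genes. Those past it were Asns, Psat1, Shmt2, Mthfd1l and Mthfd2. Asns and Shmt2, known to be higher when the enzymes were picked, are among these 5, and all their probe sets are among the 10. The counts beside the shares are therefore descriptions of a set picked in part on these values. The groups did not overlap in 6 of the 10, beside 26.2% of all genes, namely Asns, Shmt2, Mthfd1l, Mthfd2 and Aldh1l2 with knockout above and Mthfd1 with knockout below. The median difference was 0.23 over the 24 probe sets on the log2 scale and 0.02 over all probe sets. Leaving out 1 array at a time left 7 to 9 of the 10 past the threshold.

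**Figure D1:**
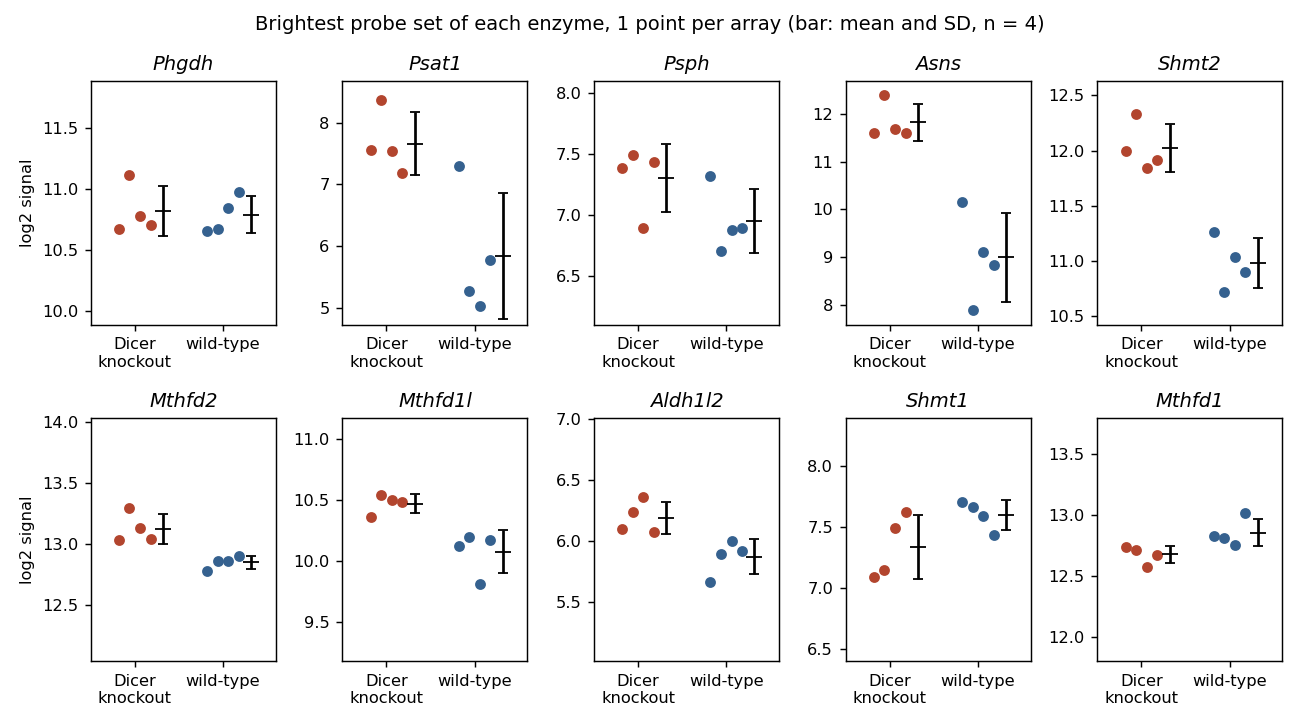
Log2 signal of the brightest probe set of each of the 10 enzymes, 1 point per array in array order, with Dicer knockout left of wild-type and the mean and SD beside (n = 4 each). Asns and Shmt2 show no overlap between the groups, Psat1 overlaps through wild-type array 1 at 7.30, and Phgdh and Shmt1 overlap.

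Asns, asparagine synthetase, had the widest gap of the 10 enzymes. Its brighter probe set, 1451095_at, read 11.61, 12.40, 11.69 and 11.61 on knockout arrays 1 to 4, against 10.15, 7.88, 9.10 and 8.83 on wild-type arrays 1 to 4. Every knockout array lay above every wild-type array, and the wild-type arrays spread far more than the knockout arrays (SD 0.383 in knockout and 0.934 in wild-type). The log2 difference was 2.84 ± 0.405 (SE, n = 4 each), or 7.15-fold, the 45th largest among 18193 genes. The second probe set, 1433966_x_at, read 10.62, 11.33, 10.74 and 10.64 in knockout oocytes, against 9.31, 6.80, 7.97 and 7.55 in wild-type oocytes, a log2 difference of 2.92 ± 0.443. Both probe sets ranked the arrays alike at the extremes, with knockout array 2 highest of all, wild-type array 1 highest and wild-type array 2 lowest of the wild-type arrays. Both stayed past the threshold whichever array was left out, with log2 differences of 2.47 to 3.22 for the brighter one.

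The start of the Asns gene carries the letters of an amino acid response element, shown because in human cells the ASNS promoter has such an element, to which ATF4 binds. In the windows that RefSeq annotation of build GRCm38.p6 gives (taken as 250 bases before to 50 after each start), TGATGNAA was searched on both strands together with GTTACA, the letters of a nearby element of the human ASNS promoter. The stretch lies at chr6:7693205-7693234 on the minus strand. For comparison the stretch of Fgf21, a hormone gene described further on, is at chr7:45615611-45615640, also on the minus strand. Capitals mark the searched letters, in Fgf21 on the opposite strand.
Asns: caTGATGAAActtcccgcacgcGTTACAga
Fgf21: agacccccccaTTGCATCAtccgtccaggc

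In Asns the first motif begins 23 bases upstream of the start taken for its window and 12 bases separate it from the second. In Fgf21 the motif begins 139 bases upstream. Among 22862 genes with 1 window, the annotated gene start sat at the position taken in 74.7%. TGATGNAA was in 3.97% of 32851 windows and GTTACA in 8.25%. The pair on 1 strand, 5 to 25 bases apart, was in 4 windows in all. The pair was chosen from the human ASNS promoter, so its rarity over all windows is a description and no test for Asns. Of the 10 windows of 9 member genes (Psat1 has 2 windows, and Aldh1l2 was not looked at), the Asns window alone held TGATGNAA. Besides Fgf21, 3 other genes described further on were searched. The windows of Sesn2 and Adsl held no TGATGNAA, and Vldlr held it in 1 of its 2 windows. TGACGTCA was also searched and was in none of these windows. These matches describe letters in the windows and nothing was measured on binding.

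The serine synthesis enzymes differed from each other. Phgdh, 3-phosphoglycerate dehydrogenase, which takes the first step, read 10.68, 11.12, 10.78 and 10.70 in knockout oocytes, against 10.65, 10.68, 10.85 and 10.98 in wild-type oocytes in its brightest probe set, 1426658_x_at. The groups overlapped, with a log2 difference of 0.03 ± 0.117 (SE, n = 4 each). Its 3 other probe sets differed by -0.23, -0.19 and -0.16, and none of the 4 lay past the threshold. All 4 Phgdh probe sets carry the suffix _x, which the array maker gives to probes that can match other transcripts.

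Psat1, phosphoserine aminotransferase, which takes the second step, was dim in wild-type oocytes and higher in knockout oocytes. Probe set 1451064_a_at read 7.07, 8.31, 7.14 and 7.08 on knockout arrays 1 to 4, against 6.61, 4.97, 4.94 and 5.14 on wild-type arrays 1 to 4. The groups did not overlap, and wild-type array 1 lay more than 1 log2 unit above the other wild-type arrays. The log2 difference was 1.99 ± 0.404 (SE), or 3.96-fold. Probe set 1454607_s_at read 7.56, 8.37, 7.53 and 7.18 in knockout oocytes, against 7.30, 5.27, 5.03 and 5.78 in wild-type oocytes, a log2 difference of 1.82 ± 0.456. Here wild-type array 1 lay above knockout array 4, so the groups overlapped, and the probe set was past the threshold in 2 of the 8 fits with 1 array left out (those without wild-type array 1 or knockout array 4), against 8 of 8 for 1451064_a_at. In 3 wild-type arrays the values of 1451064_a_at lie under the array medians, and no detection calls were used, so the fold change of this dim signal is on the compressed scale of the deposited values.

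Psph, phosphoserine phosphatase, which takes the last step, read 7.39, 7.50, 6.89 and 7.44 in knockout oocytes, against 7.32, 6.70, 6.88 and 6.89 in wild-type oocytes. Knockout array 3 lay among the wild-type arrays and wild-type array 1 among the knockout arrays. The log2 difference of 0.35 ± 0.162 was not past the threshold. Of the 3 consecutive enzymes, only the second was therefore past it, in both of its probe sets.

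**Figure D2:**
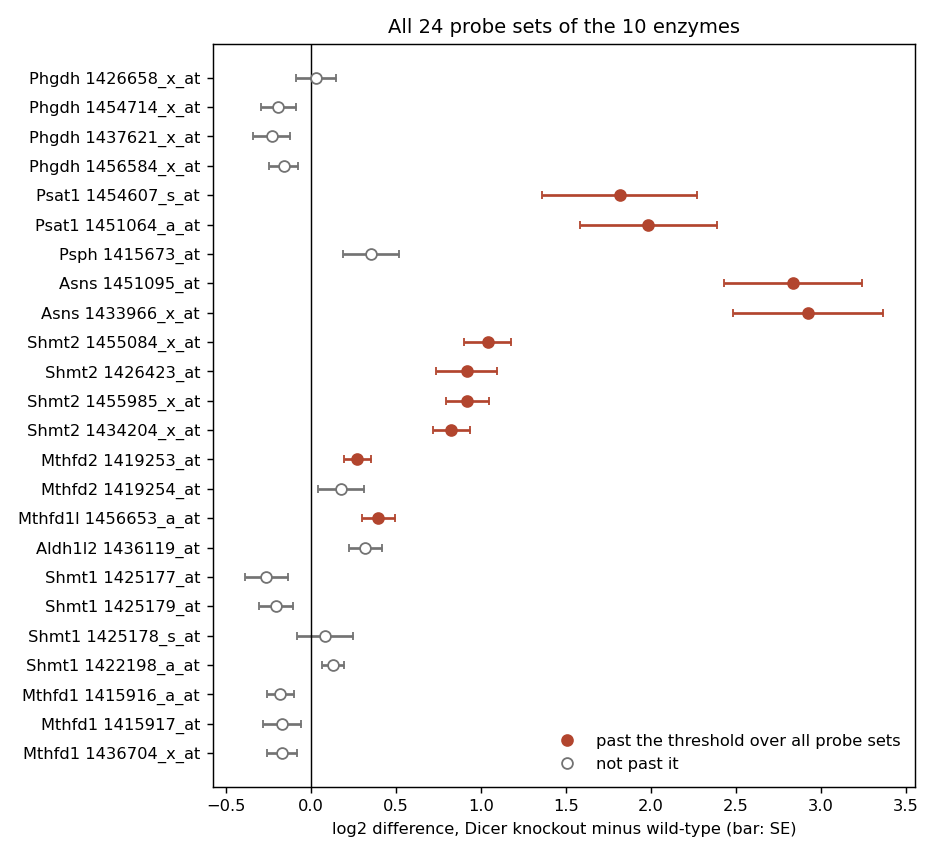
Log2 difference, Dicer knockout minus wild-type, of all 24 probe sets with its SE (n = 4 each), filled where the limma fit over all probe sets passed adjusted p of 0.05. The 2 Asns probe sets lie at 2.84 and 2.92, the 2 Psat1 probe sets at 1.82 and 1.99 and the 4 Shmt2 probe sets between 0.83 and 1.04, while those of Phgdh, Shmt1 and Mthfd1 lie between -0.26 and 0.13.

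The serine hydroxymethyltransferases of mitochondria and cytosol differed. Shmt2, the mitochondrial enzyme, read 12.00, 12.33, 11.84 and 11.91 in knockout oocytes, against 11.26, 10.72, 11.03 and 10.90 in wild-type oocytes in its brightest probe set, 1455084_x_at. The groups did not overlap in this or any of its 3 other probe sets. The log2 difference was 1.04 ± 0.137 (SE, n = 4 each), or 2.06-fold, and those of the other probe sets were 0.92, 0.92 and 0.83. Of the 4, 1426423_at is the probe set with no shared-sequence suffix, and it read 9.82, 10.52, 9.68 and 9.74 in knockout oocytes, against 9.08, 8.78, 9.01 and 9.23 in wild-type oocytes. All 4 probe sets stayed past the threshold whichever array was left out.

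Shmt1, the cytosolic enzyme, read 7.09, 7.15, 7.50 and 7.63 in knockout oocytes, against 7.71, 7.67, 7.59 and 7.43 in wild-type oocytes in its brightest probe set, 1425177_at. The groups overlapped, with a log2 difference of -0.26 ± 0.129. Its 3 other probe sets differed by -0.20, 0.08 and 0.13, and none of the 4 was past the threshold. In the dimmest, 1422198_a_at, the knockout values of 5.77 to 5.89 all lay above the wild-type values of 5.64 to 5.74.

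The remaining mitochondrial folate enzymes showed small differences in the direction of Shmt2. Mthfd1l, which releases the carbon as formate, read 10.36, 10.54, 10.50 and 10.48 in knockout oocytes, against 10.12, 10.19, 9.81 and 10.17 in wild-type oocytes. The groups did not overlap, and the log2 difference was 0.40 ± 0.0966 (SE), or 1.32-fold. It was past the threshold, but not without knockout array 2, 3 or 4 (log2 differences 0.37, 0.39 and 0.39).

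Mthfd2, a dehydrogenase and cyclohydrolase that works before Mthfd1l, read 13.03, 13.29, 13.13 and 13.04 in knockout oocytes, against 12.78, 12.86, 12.86 and 12.90 in wild-type oocytes in probe set 1419253_at. The groups did not overlap, the log2 difference was 0.27 ± 0.0791 (1.21-fold), and it was past the threshold with all arrays but in none of the 8 fits with 1 array left out. Its probe set 1419254_at overlapped between the groups, with 12.24 to 12.57 in knockout and 11.97 to 12.52 in wild-type oocytes, and was not past the threshold (log2 difference 0.18). Aldh1l2, which oxidises the carbon to CO2, read 6.10, 6.24, 6.36 and 6.07 in knockout oocytes, against 5.66, 5.90, 6.0 and 5.92 in wild-type oocytes. Its groups did not overlap and its log2 difference of 0.32 ± 0.0975 fell just short of the threshold.

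Mthfd1, the cytosolic enzyme that joins the Mthfd2 and Mthfd1l activities in 1 protein, differed in the other direction without passing. It read 12.74, 12.71, 12.58 and 12.68 in knockout oocytes, against 12.83, 12.82, 12.76 and 13.02 in wild-type oocytes in its brightest probe set, where every knockout array lay below every wild-type array. The log2 difference was -0.18 ± 0.0795, and the 2 other probe sets both read -0.17. By brightest probe set, 3 of the 4 mitochondrial folate genes (Shmt2, Mthfd2, Mthfd1l and Aldh1l2) were thus past the threshold as higher. Of the 2 cytosolic genes (Shmt1 and Mthfd1) 0 were past it in either direction. Over all genes 8.18% were higher and 21% were past it in either direction, so 0 of 2 is near that share. The calls of Mthfd2 and Mthfd1l depended on single arrays, as given above. The difference between the compartments was not tested, since the genes were chosen on this contrast.

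**Figure D3:**
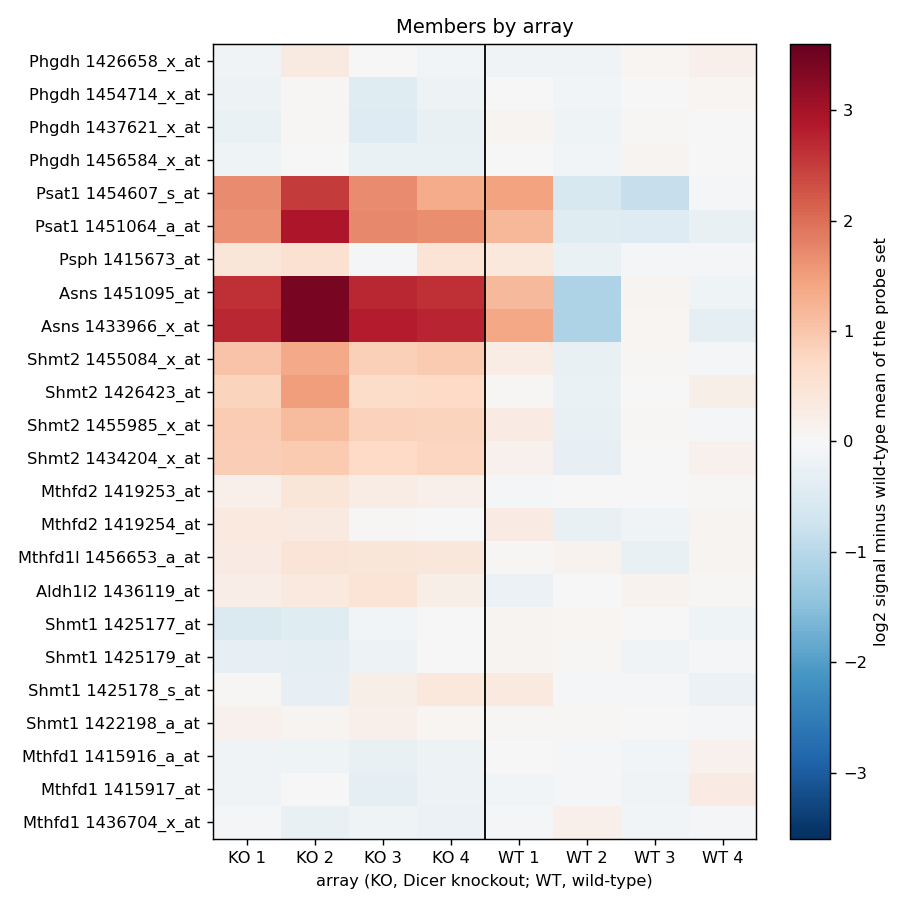
Log2 signal of each of the 24 probe sets (rows) on each array (columns, Dicer knockout left of wild-type), minus the wild-type mean of that probe set. Knockout array 2 is the reddest column for Asns, Psat1 and Shmt2, and wild-type array 1 is raised for Asns and Psat1 relative to the other wild-type arrays.

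Single arrays within each genotype held the extremes. Knockout array 2 was the highest knockout array in 10 of the 10 probe sets past the threshold, and wild-type array 1 the highest wild-type array in 7 of them. These arrays share the number 24 at the head of the code in their titles, and knockout array 4 and wild-type array 2 share the number 27. What the number stands for is not given in the sources used here. Within the pair numbered 24 the brighter Asns probe set differed by 2.25 on the log2 scale and within the pair numbered 27 by 3.73, Psat1 (1451064_a_at) by 1.71 and 2.11, and Shmt2 (1455084_x_at) by 1.07 and 1.19. All 10 probe sets had a positive difference within both pairs, which is no separate support, since they were called on these same arrays. In all of them but Psat1 1454607_s_at the groups did not overlap, which fixes the sign within any pair. Without wild-type array 1 the Asns log2 difference was 3.22 in place of 2.84, and without knockout array 2 the difference of Psat1 (1451064_a_at) was 1.68 in place of 1.99.

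The genes whose levels followed Asns most closely over the 8 arrays were, by Pearson correlation with its brighter probe set, Dlc1 (r = 0.99), Shmt2 (0.985), Fkbp15 (0.984), 1700116B05Rik (0.983) and Dhtkd1 (0.983). For Shmt2 they were Exosc2 (0.990), Slc3a2 (0.987), Slc19a1 (0.986), Wdr78 (0.986) and Rnf168 (0.985). Slc3a2 is the heavy chain of several amino acid transporters and Slc19a1 is the reduced folate carrier. With 2 genotypes most of such a correlation comes from the difference between them, and 153 genes for Asns and 214 for Shmt2 had r above 0.95, so these are descriptions.

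Related genes outside the 10 were taken from lists of neighbouring pathways, 1 probe set a gene, with p-values from the same limma fit adjusted over all probe sets. These lists, like those of the amino acid response and the markers, were also chosen with earlier results of these data known. Their counts and p-values are therefore descriptive too. Of 54 measured genes 9 were higher and 8 lower in knockout oocytes, beside 8.18% and 12.8% of all genes, and the median log2 difference was 0.04 (0.00 over all genes rounded to 2 decimals). The enzymes of purine synthesis, which uses the folate-bound carbon in 2 of its steps, were higher in 5 of 6 cases and lower in 0. The other groups had few changes in either direction. Genes outside these counts passed in probe sets other than the brightest: Slc1a4 as higher in 2 of 3, Glud1 as higher in 1 of 2 and Asrgl1, an asparaginase, as lower in 2 of 4. The brightest Asrgl1 probe set differed by -0.35 on the log2 scale (limma adjusted p = 0.0542), with all knockout arrays below.

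Adsl, adenylosuccinate lyase, read 10.31, 11.03, 10.42 and 10.46 in knockout oocytes, against 9.12, 8.60, 8.32 and 8.71 in wild-type oocytes. The groups lay far apart, and Adsl was 3.65-fold higher (log2 1.87 ± 0.192 SE, limma adjusted p = 0.000219, 4 of 4 knockout arrays above all wild-type arrays). Ppat, which takes the first committed step, was 1.87-fold higher (adjusted p = 0.0112) and Gart, which uses formyl folate, 1.34-fold higher (adjusted p = 0.0101). In both, a single probe set of several passed, 1 of 3 for Ppat and 1 of 4 for Gart, and with the mean of its probe sets Gart did not pass (adjusted p = 0.0984), while Ppat passed with a log2 difference of 0.40 in place of 0.90. The groups overlapped for Ppat, with 6.21 on knockout array 2 and 6.22 on wild-type array 1. Named after their values were seen, Pfas (log2 0.59) and Atic, the other user of formyl folate (log2 0.35), passed with all arrays. Pfas did so in 2 of the 8 fits with 1 array left out (those without wild-type array 3 or 4) and Atic in 1 (without wild-type array 3). With the mean of its probe sets Atic did not pass. Paics read 12.68 to 12.85 in knockout oocytes, against 12.54 to 12.60 in wild-type oocytes, and missed the threshold (adjusted p = 0.113).

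**Figure D4:**
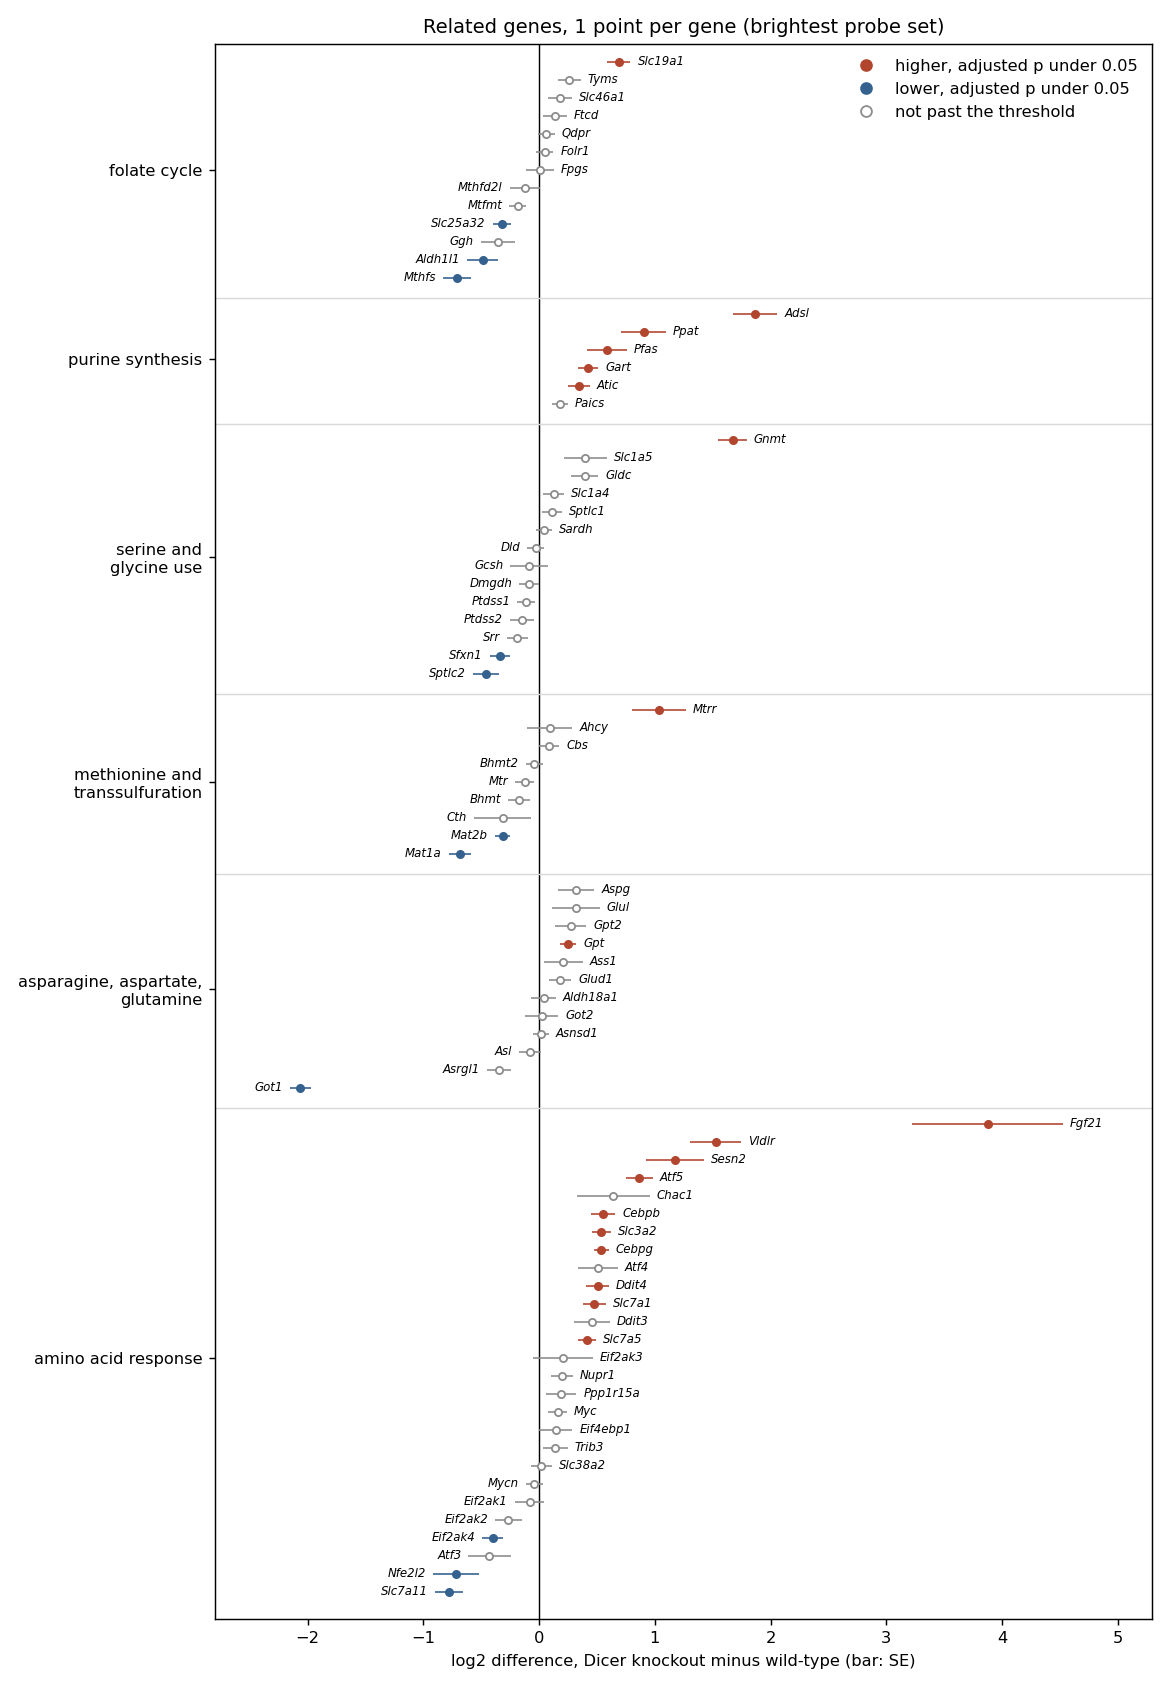
Log2 difference, Dicer knockout minus wild-type, of 81 related genes with its SE (n = 4 each), 1 probe set a gene, grouped by pathway. Filled points passed limma's adjusted p of 0.05. Adsl (1.87), Gnmt (1.67) and Fgf21 (3.88) lie farthest to the right of their groups and Got1 (-2.06) farthest to the left.

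In the folate cycle, 1 of 13 genes rose and 3 fell. Slc19a1, which carries reduced folate into cells, rose 1.61-fold (10.42 to 10.74 in knockout and 9.78 to 10.12 in wild-type oocytes, limma adjusted p = 0.00165). Mthfs, which returns stored folate to the cycle, fell by 0.71 on the log2 scale (adjusted p = 0.00368), Aldh1l1, the cytosolic counterpart of Aldh1l2, by 0.49 and Slc25a32, the mitochondrial folate carrier, by 0.32. The call of Aldh1l1 held in 2 of 8 fits with 1 array left out (without knockout array 2 or wild-type array 3), and its groups overlapped. With the mean of its 2 probe sets the call of Aldh1l1 was lost (log2 -0.36, limma adjusted p = 0.139). That of Slc25a32 held in 4 (lost without knockout array 1 or 3 or wild-type array 2 or 4) and was lost with the mean of its 3 probe sets (log2 -0.19, adjusted p = 0.0615).

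Among 14 genes that use serine or glycine, 1 rose and 2 fell. Gnmt, which methylates glycine with S-adenosylmethionine, read 10.06, 10.60, 10.24 and 10.11 in knockout oocytes, against 8.67, 8.51, 8.43 and 8.71 in wild-type oocytes. The groups lay well apart, and it rose 3.19-fold (adjusted p = 3.99e-05). Sptlc2, of sphingolipid synthesis, fell by 0.46 and Sfxn1, which carries serine into mitochondria, by 0.34. For Sptlc2 1 of 3 probe sets passed, another had the opposite sign, and their mean did not pass (log2 -0.11, adjusted p = 0.288). For Sfxn1 1 of 2 passed, and their mean did not (log2 -0.35, limma adjusted p = 0.101). Of the fits with 1 array left out, Sptlc2 kept its call in 4 (lost without knockout array 3 or wild-type array 1, 2 or 4) and Sfxn1 in 2 (without wild-type array 2 or 3).

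Of 9 methionine and transsulfuration genes, Mtrr, which reactivates methionine synthase, rose 2.05-fold (adjusted p = 0.0135). Mat1a and Mat2b, a catalytic and a regulatory subunit of S-adenosylmethionine synthesis, fell by 0.68 and 0.31 (adjusted p = 0.00132 and 0.0118). Of 12 asparagine, aspartate and glutamine genes, 1 rose and 1 fell. Got1, the cytosolic aspartate aminotransferase, read 7.67, 7.93, 7.83 and 8.06 in knockout oocytes, against 9.92, 10.01, 9.88 and 9.94 in wild-type oocytes, and fell by 2.06 (adjusted p = 3.01e-06), the 36th lowest difference among 18193 genes. Gpt, alanine aminotransferase, rose 1.19-fold, in 2 of 8 fits with 1 array left out (without knockout array 4 or wild-type array 3). With the mean of its 2 probe sets Gpt did not pass (log2 0.18, limma adjusted p = 0.0867). Aspartate is a substrate of Asns, and the mitochondrial aminotransferase Got2 read 11.94 ± 0.217 in knockout and 11.91 ± 0.249 in wild-type oocytes (SD, n = 4 each), with an adjusted p of 0.942.

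Of 27 regulators and targets of the amino acid response, 10 rose and 3 fell, beside 8.18% and 12.8% of all genes, with a median log2 difference of 0.21. Atf4 read 13.06, 13.14, 12.88 and 12.61 in knockout oocytes, against 12.78, 12.59, 12.11 and 12.17 in wild-type oocytes. The groups overlapped and the log2 difference of 0.51 ± 0.169 missed the threshold (limma adjusted p = 0.0723). It passed in 2 of the 8 fits with 1 array left out. Those were the fits without knockout array 4 (adjusted p = 0.047) or wild-type array 1 (0.0289). Atf4 had 0 of its 3 probe sets past the threshold (log2 differences of -0.03 to 0.51). With their mean it did not pass either (log2 0.31, adjusted p = 0.176). Its partners Cebpg and Cebpb, leucine zipper factors, rose 1.45-fold and 1.47-fold (adjusted p = 0.000548 and 0.00531), and the Atf4 relative Atf5 rose 1.82-fold (adjusted p = 0.00105). For Cebpg 1 of 3 probe sets passed, another had the opposite sign, and the mean of the 3 did not pass (adjusted p = 0.281).

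Vldlr, a lipoprotein receptor, rose 2.88-fold (adjusted p = 0.00143), in 5 of its 6 probe sets, with a log2 difference of 0.85 for their mean in place of 1.53. Fgf21, a secreted growth factor named after its values were seen, read 10.11, 11.64, 10.89 and 10.39 in knockout oocytes, against 9.10, 6.39, 5.90 and 6.14 in wild-type oocytes. The arrays fall in the pattern of Psat1, with knockout array 2 and wild-type array 1 the highest of their groups. The log2 difference was 3.88 ± 0.652 (adjusted p = 0.00331) and 4.62 without wild-type array 1. The other genes that rose, also named after their values were seen, were Sesn2, an inhibitor of mTORC1 signalling, at 2.26-fold, and the amino acid transporter genes Slc3a2, Slc7a1 and Slc7a5 with Ddit4, at 1.33-fold to 1.45-fold.

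Other genes of the same response did not pass or were lower. Named after their values were seen, Eif2ak1 passed as higher in 1 of 5 probe sets and Eif2ak3 as lower in 1 of 3, not in the brightest. Ddit3, known as CHOP, read 10.48 ± 0.319 in knockout and 10.03 ± 0.184 in wild-type oocytes (SD, n = 4 each, limma adjusted p = 0.0828, but 0.0148 without knockout array 3 and 0.0286 with the mean of its probe sets). Trib3 read 6.94 ± 0.178 in knockout and 6.80 ± 0.142 in wild-type oocytes (adjusted p = 0.449). Slc7a11, the cystine transporter, fell by 0.78 (adjusted p = 0.00213). Eif2ak4, the kinase GCN2 that senses uncharged tRNA, fell by 0.40 (adjusted p = 0.0154), and Nfe2l2, the redox factor NRF2, by 0.72 (adjusted p = 0.037), a call that held in 1 of 8 fits with 1 array left out (without wild-type array 3). With the mean of their probe sets, where 1 of 2 had passed for each, these 3 log2 differences were -0.34, -0.22 and -0.43, all still past the threshold.

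Several transcripts used as somatic cell markers also differed between the groups. Over all genes 12.8% were lower and 8.18% higher, the shares to set beside each marker count here. Of 16 cumulus and granulosa markers 9 were lower in knockout samples and 0 higher. The summed linear signal of the 16 was 5630 to 7460 on knockout arrays and 8663 to 12929 on wild-type arrays. Their median log2 difference was -0.58. The lowest p-values were those of Nr5a2 (-0.44 on the log2 scale, limma adjusted p = 0.00863) and Greb1 (-0.68, adjusted p = 0.0101). Named after their values were seen, the largest drops were those of Cyp11a1, of steroid synthesis (-1.57, adjusted p = 0.0101), Inhbb (-1.18), Fst (-1.10) and Inha (-0.996). The granulosa markers Amh and Foxl2, also named after their values were seen, read 7.26 and 7.76 in knockout samples and 7.28 and 7.77 in wild-type samples. Of 11 oocyte markers 4 fell, by 0.30 to 0.61, and 0 rose, with summed signals of 149414 to 157674 in knockout and 157935 to 166567 in wild-type samples. Of 9 blood and stroma markers, Cd68 rose (log2 1.16) and Tek and Kdr fell, with sums of 1178 to 1299 in knockout and 1281 to 1452 in wild-type samples. Which cells these transcripts came from was not determined, and fewer cells of a type and less RNA per cell cannot be told apart in such samples. The part of these transcripts in the differences of the enzymes was not tested.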

How the data were processed

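Transcript signal was measured in germinal vesicle-stage oocytes of 8 mice on 1-colour Affymetrix arrays, after 2 rounds of linear amplification of RNA from 20 oocytes per mouse, per the labels' protocols. The authors deposited log2 signal for each probe set. RMA and Partek are named in the submitters' processing notes, without versions. Low signals are compressed by RMA, and amplification favours 3′ ends. Groups came from the genotype label, and replicates are numbered in accession order. Litters are not given, so p-values measure the spread between these mice.

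Of 45101 probe sets 64 controls were left out. Of the rest, 34945 had 1 gene symbol in the platform annotation, 932 several and 9160 none listed there. All 24 probe sets of the enzymes matched the RefSeq gene table of GRCm38.p6 by gene identifier. A gene was represented by its brightest probe set. Genotypes were compared with limma 3.58.1 under R 4.3.3 (lmFit, then eBayes, knockout minus wild-type, no covariates), with errors as SD or moderated SE. On simulated data for this comparison (45037 probe sets, 200 changed) it recovered 42.4% of changes of 0.5 log2, 85.2% of 1 and 95.9% of 2. The real comparison called 7264 probe sets, so the adjustment differed and these shares need not hold for it. The number of arrays limits the precision.

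The enzymes and all lists were chosen with earlier results of these data known. Genes named were every probe set of the enzymes, the 3 with the lowest p in each direction per list, and Atf4, Ddit3, Trib3 and Cebpb. Others are marked as named after their values were seen, complete a count, or had the lowest p or closest correlation as stated. Got2 and the brightest oocyte markers were named outside these rules. Of the 93 related genes and members of the response looked for, 12 were not analysed here, nor were 4 of the markers. The alternatives tried were dropping dim probe sets, 3 scalings, another variance model, array weights, a random block for the title number, averaging the probe sets of each gene, dropping those of shared sequence, and dropping each array in turn.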

Additional observations from a re-analysis of the deposited data

Results flagged for a closer look

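In 120 sets of 4 arrays (each probe set of the enzymes and each named related gene, in each genotype), an array standing apart was sought by how much of the spread of its set lay between it and its closest neighbour. There were 9 such sets, where chance alone gives about 6. In 6 of the 9 the array was knockout array 2. It was the highest knockout array for Psat1 1451064_a_at (8.31, next 7.14), Asns 1451095_at (12.40, next 11.69), Shmt2 1426423_at (10.52, next 9.82), Sesn2 (9.88, next 8.90) and Mat1a (8.08, next 7.92), and the lowest for Mat2b (12.86, next 13.02). Among wild-type arrays, array 1 stood highest for Psat1 1451064_a_at (6.61, next 5.14) and Fgf21 (9.10, next 6.39). Array 4 stood highest there for Mthfd1 1415917_at (12.10, next 11.75).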

How the results depend on the processing

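No difference past the threshold changed sign under any alternative run. Differences near 0 that were not past it did: Phgdh 1426658_x_at read -0.07 without knockout array 2, -0.01 without wild-type array 1 and -0.01 without wild-type array 2, in place of 0.03. Shmt1 1425178_s_at read -0.02 without knockout array 4, in place of 0.08, and Trib3 -0.01 with its probe sets averaged, in place of 0.14. The count of probe sets of the enzymes past the threshold as higher, 10, was 9 to 11 under the 3 scalings, the other variance model, array weights, the title number as a block and the filter on dim probe sets, and 7 to 9 with 1 array left out. It was 5 of 13 without probe sets of shared sequence, 1 each for Asns, Psat1, Shmt2, Mthfd1l and Mthfd2. The 8 lower related genes were 4 to 8, the 9 higher 6 to 9, and the 5 higher purine genes 3 to 5 with 1 array left out. The purine count was 3 with dim probe sets left out, where fewer genes were tested, and 3 with probe sets averaged per gene. The share of higher calls over all probe sets, 42.3%, was 48.3% with cyclic loess, 44.2% with quantile normalization and 36.4% with array medians subtracted, and the median difference moved by less than 0.1 log2 in each scaling. No paired analysis was possible because the labels give no replicate numbers and the title numbers join only 2 knockout mice to a wild-type mouse each (wild-type arrays 3 and 4 share another). The title number was instead used as a random block, which left the count of probe sets of the enzymes at 10.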
